A study of Mus musculus with 12 samples.

Results

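The genes described here are 38 mouse genes of the unfolded protein response and of amino acid stress, split by role into an ATF4 arm of 18 genes and a chaperone arm of 20 genes. They were found on 12 one-colour Agilent arrays as the probes whose RefSeq accession carries one of the 38 symbols. Probes were found for 36 of them. Dnajb11 and Pdia3, a J protein and a disulfide isomerase, matched no probe by accession, and Stc2, a secreted stress glycoprotein, was not well above background on any array. The other 35 genes, 17 in the ATF4 arm and 18 in the chaperone arm, were well above background on all 12 arrays and were tested among 12300 genes.

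The cells were C3H/10T1/2, a mouse embryo fibroblast line that turns to muscle when it is given MyoD, the master transcription factor of skeletal muscle. Every culture carried a stable short hairpin, either shSix4 against the homeobox gene Six4 or the luciferase control shLuc, and was infected with a pBABE retrovirus. The 4 groups of 3 arrays were shSix4 cells given pBABE-MyoD, shSix4 cells given empty pBABE, shLuc cells given pBABE-MyoD and shLuc cells given empty pBABE. All were moved 24 h after infection to differentiation medium with 2% horse serum and collected after a further 24 h, so the empty-vector cells also went through serum reduction. The labels do not say whether a hairpin line was a clone or a pool, nor whether each replicate had a culture of its own. A p-value here therefore covers only the variation among these arrays, which could be technical. The free-text description of the samples names another cell line and was not used, because the titles, sources and cell line labels all name C3H/10T1/2.

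The unfolded protein response starts from sensors in the membrane of the endoplasmic reticulum (ER). PERK, and GCN2 when amino acids run short, phosphorylate eIF2α, which lowers translation in general and raises that of ATF4, a transcription factor for amino acid synthesis and transport, redox control and CHOP. IRE1 splices Xbp1 messenger RNA, and ATF6 is released by cleavage. Both then drive genes for ER chaperones and for the degradation of misfolded proteins. ATF4 is set largely by translation and XBP1 by splicing, and neither step is measured by these probes. Mouse myoblasts are known to pass through ER stress signals while they differentiate.

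Promoter letters are shown first because the letters searched for are those that the factors driving each arm are known to bind. The genes were grouped as targets of these pathways, so the matches are not independent of how the arms were drawn. RefSeq promoters (GRCm38.p6) were found for 35 of the 38 genes, 17 and 18 by arm, and the 250 bases before each start were searched on both strands. The ER stress response element, CCAAT and CCACG with 9 bases of any kind between them, was in 8 of 18 chaperone-arm promoters (Hspa5, Hsp90b1, Calr, Canx, Pdia6, Dnajc3, Creld2 and Syvn1) and in 0 of 17 in the ATF4 arm, against 0.113% of 32851 promoters. The C/EBP-ATF response element TGATGNAA was in 4 of 17 ATF4-arm promoters (Atf3, Nupr1, Chac1 and Asns) and in 1 of 18 chaperone-arm promoters (Herpud1), against 3.45% of all. The shorter ER element, ATTGG and CCACG with 1 base between them, was in Herpud1 alone, against 0.0304% of all, and the XBP1-type letters TGACGTGG were in none of the 35, against 0.563%. The letters CCACG end both ER elements and open TGACGTGG read on the opposite strand, so these motifs overlap. A match is a description of letters and not a bound site. The sequences below read 5′ to 3′ along each gene's strand and end at the base before the start. Capitals mark the fixed letters of a match. The ATF4-arm promoters lie at chr7:126625471-126625720 (Nupr1, minus strand), chr1:191183334-191183583 (Atf3, minus), chr6:7693210-7693459 (Asns, minus) and chr2:119350992-119351241 (Chac1, plus). The chaperone-arm promoters lie at chr2:34771840-34772089 (Hspa5, plus), chr10:86705445-86705694 (Hsp90b1, minus) and chr8:94386179-94386428 (Herpud1, plus).
Nupr1: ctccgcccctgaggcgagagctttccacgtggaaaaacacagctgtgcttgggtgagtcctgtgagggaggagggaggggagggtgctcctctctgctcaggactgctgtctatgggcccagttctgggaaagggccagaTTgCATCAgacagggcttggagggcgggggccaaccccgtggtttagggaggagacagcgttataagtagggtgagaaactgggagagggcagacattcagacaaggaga
Atf3: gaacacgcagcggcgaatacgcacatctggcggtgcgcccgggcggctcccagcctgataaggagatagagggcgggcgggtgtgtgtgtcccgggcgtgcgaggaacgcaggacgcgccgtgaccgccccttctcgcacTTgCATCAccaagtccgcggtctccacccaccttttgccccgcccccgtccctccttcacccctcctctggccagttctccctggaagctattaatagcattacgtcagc
Asns: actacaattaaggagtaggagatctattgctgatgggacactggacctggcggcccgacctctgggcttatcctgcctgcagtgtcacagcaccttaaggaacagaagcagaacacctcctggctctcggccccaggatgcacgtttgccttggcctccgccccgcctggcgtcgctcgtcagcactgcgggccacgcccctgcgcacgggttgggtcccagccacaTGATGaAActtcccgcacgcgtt
Chac1: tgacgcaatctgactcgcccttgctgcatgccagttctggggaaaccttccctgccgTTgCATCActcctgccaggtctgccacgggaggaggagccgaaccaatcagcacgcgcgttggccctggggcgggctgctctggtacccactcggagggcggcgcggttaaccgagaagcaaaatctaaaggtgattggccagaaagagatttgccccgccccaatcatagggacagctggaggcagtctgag
Hspa5: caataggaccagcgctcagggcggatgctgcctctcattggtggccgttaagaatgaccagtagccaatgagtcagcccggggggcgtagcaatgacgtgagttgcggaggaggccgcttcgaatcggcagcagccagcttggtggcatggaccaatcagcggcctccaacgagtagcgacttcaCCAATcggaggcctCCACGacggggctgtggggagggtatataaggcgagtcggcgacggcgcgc
Hsp90b1: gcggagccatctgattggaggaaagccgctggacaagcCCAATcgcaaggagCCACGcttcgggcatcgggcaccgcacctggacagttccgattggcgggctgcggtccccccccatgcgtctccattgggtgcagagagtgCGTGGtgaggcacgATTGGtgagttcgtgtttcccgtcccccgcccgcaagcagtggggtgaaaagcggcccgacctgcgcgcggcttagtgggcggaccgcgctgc
Herpud1: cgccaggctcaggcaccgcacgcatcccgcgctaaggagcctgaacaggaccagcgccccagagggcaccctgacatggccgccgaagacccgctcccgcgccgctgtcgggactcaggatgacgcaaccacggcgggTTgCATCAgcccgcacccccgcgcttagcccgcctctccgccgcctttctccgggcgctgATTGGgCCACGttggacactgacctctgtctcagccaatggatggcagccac
Nupr1 and Atf3 hold the C/EBP-ATF letters on the opposite strand, with the first base 110 bases before the start in both, and Asns holds them on its own strand close to the start. Hsp90b1 holds the ER element 2 times, once on each strand, and Herpud1 holds both the shorter ER element and the C/EBP-ATF letters.

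Levels below are log2 signal relative to the 75th percentile of the array, listed for slides 1, 2 and 3, and are set side by side only within a gene. Each slide carried 1 array of every group at the same position on every slide, so slide and replicate number are the same and position and group cannot be told apart. Arrays had 22318 to 27448 probes well above background, and the number of arrays limits the precision. Six4 itself read -3.03, -2.93 and -1.54 in shSix4 MyoD cells, against -1.45, -1.69 and -0.85 in shLuc MyoD cells. It read -4.10, -3.0 and -2.82 in shSix4 empty-vector cells, against -2.62, -2.90 and -1.64 in shLuc empty-vector cells. Six4 was lower in shSix4 cells on every slide, but in limma neither difference passed an adjusted p of 0.05, the threshold used throughout (log2 -1.17, adjusted p 0.558, in MyoD cells and -0.92, adjusted p 0.999, in empty-vector cells). With the slide as a block the adjusted p was 0.0424 in MyoD cells and 0.168 in empty-vector cells. All 6 skeletal muscle markers rose with MyoD in both lines, and all 6 fibroblast markers were well above background in every group. Of the markers of other cell types, 2 of 5 leukocyte, 1 of 4 endothelial and 3 of 4 epithelial genes were measured. The mean over each list lay between -6.17 and -1.92 on all arrays, which hides single genes. The leukocyte gene Cd14 read from -1.07 to 0.25 and was well above background on every array. With MyoD the epithelial gene Krt18 changed by log2 2.67 in shSix4 cells and 2.18 in shLuc cells. The endothelial gene Tek changed by -1.25 and -1.12.

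The clearest pattern over the 12 arrays was in the ATF4 arm and ran with the slide. The mean of the 17 genes, each relative to its own mean over the arrays, was 0.38, -0.40 and -0.45 in shSix4 MyoD cells and 1.12, -0.23 and -0.10 in shSix4 empty-vector cells. It was 0.01, -0.29 and -0.35 in shLuc MyoD cells and 0.44, 0.10 and -0.25 in shLuc empty-vector cells. Slide 1 was the highest in every group, and all groups overlapped. The chaperone-arm mean was -0.02, -0.11 and -0.07 in shSix4 MyoD cells, 0.13, -0.03 and 0.13 in shSix4 empty-vector cells, -0.06, -0.11 and -0.15 in shLuc MyoD cells, and 0.12, 0.22 and -0.04 in shLuc empty-vector cells. Slide 1 was highest there in both MyoD groups only. The SD of the chaperone-arm mean over 3 arrays was 0.05, 0.09, 0.04 and 0.13 in the same group order, against 0.47, 0.74, 0.19 and 0.34 for the ATF4 arm.

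**Figure D1:**
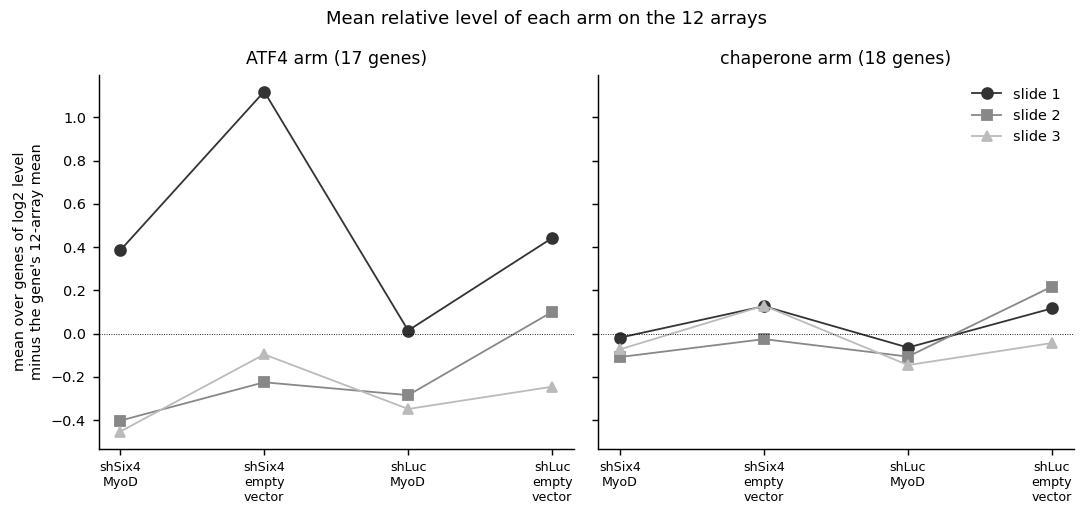
Mean level of each arm (log2, each gene relative to its own mean over the 12 arrays) in the 4 groups, with 1 line per slide. Slide 1 runs above the other slides for the ATF4 arm, reaching 1.12 in shSix4 empty-vector cells, while the chaperone arm lies between -0.15 and 0.22.

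Gene by gene, slide 1 read highest in all 4 groups for 12 of 17 ATF4-arm genes and for 4 of 18 chaperone-arm genes, against 26% of all 12300 genes. The level on slide 1 minus the mean of slides 2 and 3, averaged over groups, had a median of 0.81 in the ATF4 arm (positive for 15 of 17 genes), -0.06 in the chaperone arm (8 of 18) and 0.09 over all genes (56.3% positive). The exceptions in the ATF4 arm were Ddit4, which encodes the mTORC1 inhibitor REDD1 and read lowest on slide 1 in every group, and Sesn2, a leucine sensor that restrains mTORC1. The asparagine synthetase gene Asns showed the pattern at 5.64, 4.06 and 4.10 in shSix4 MyoD cells, 6.28, 4.33 and 4.43 in shSix4 empty-vector cells, 4.84, 4.10 and 4.05 in shLuc MyoD cells, and 5.36, 5.14 and 4.33 in shLuc empty-vector cells. Its slide 1 value was the highest of each group, and all 4 groups overlapped. Genes of other lists described below also read highest on slide 1 in all 4 groups, so the pattern was not confined to this arm. They are named here after their values were seen, and 26% of all genes did the same. Of 9 cytosolic heat shock genes, Hspa1a, Hspa1b, Hsph1, Hsp90aa1 and Hsp90ab1 did so and the rest did not. Of 12 aminoacyl-tRNA synthetase genes, several of them ATF4 targets, Cars, Gars, Lars, Mars, Tars, Wars and Yars did so. The rest did not, apart from Aars, which lacked a value on 1 array. Of 12 measured genes for amino acid transport and synthesis, Psph, Aldh1l2, Mthfd1l, Shmt1 and Cth did so and the rest did not. Within groups, the pooled SD of a gene had a median of 0.559 in the ATF4 arm, above the median of all genes (0.361) for 14 of 17, and 0.238 in the chaperone arm, above it for 5 of 18. Slide 1 was scanned on another day than slides 2 and 3. Its arrays had 22318 to 24791 probes well above background, against 23447 to 26131 on slide 2 and 24609 to 27448 on slide 3, so these ranges overlap. On slide 1, 3 of 6 fibroblast markers read lowest in all 4 groups (19.4% of all genes did). Of the other marker lists, 2 of 6 muscle, 2 of 3 epithelial and 0 of 2 leukocyte genes read highest on slide 1 in all groups, and the 1 endothelial gene read lowest. Their part in the slide pattern was not tested.

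**Figure D2:**
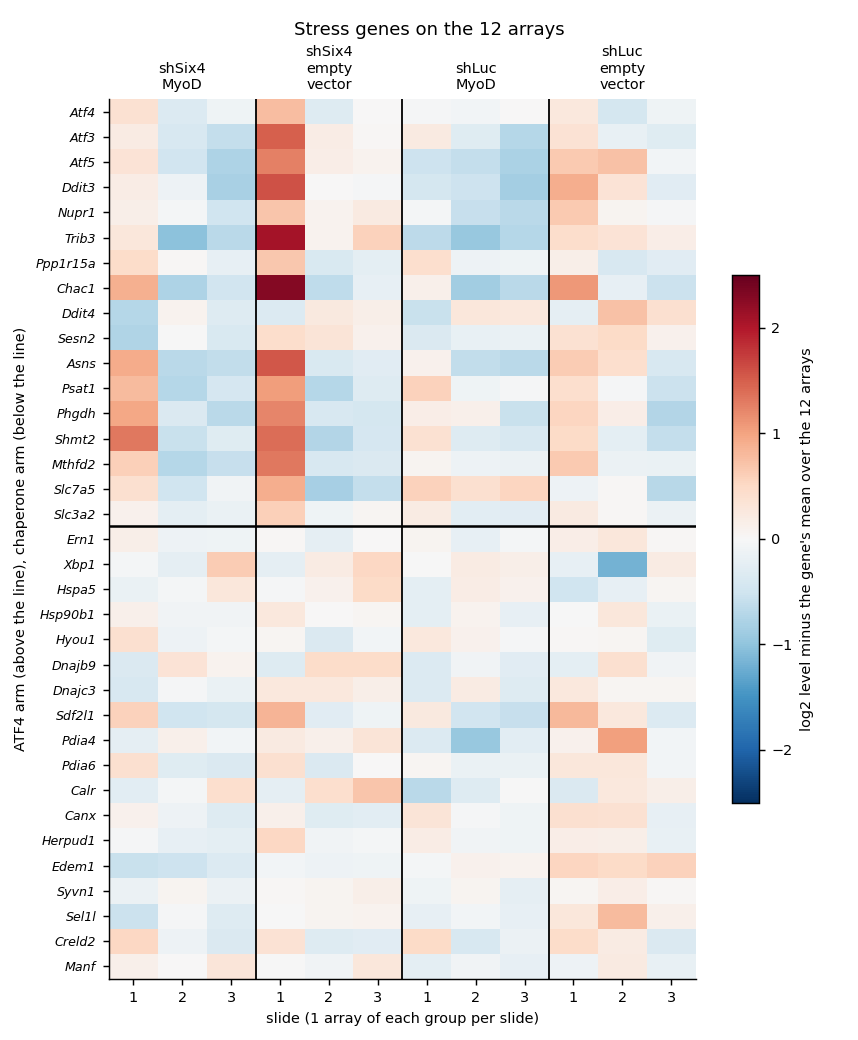
Level of the 35 measured genes (rows, log2 relative to the gene's mean over the 12 arrays, colour limited to 2.5 in each direction) on each array (columns, by group and slide). The slide 1 columns are the highest for most of the ATF4 arm, and the chaperone arm shows paler colours with no shared slide.

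The first comparison asked what MyoD does to these genes in each hairpin line. In limma without a block, 0 of 35 genes passed in shSix4 cells (of all genes, 2.79% were called higher and 0.106% lower) and 0 of 35 in shLuc cells (4.72% higher and 1.56% lower). At an unadjusted p under 0.05, 4 of the 35 were lower and 0 higher in shSix4 cells, where 3.6% of all genes were lower and 6.17% higher. In shLuc cells 7 were lower and 0 higher, where 11% of all genes were lower and 8.3% higher. Arrays of different groups on 1 slide deviated together, with correlations from 0.278 to 0.819 over 18 pairs, so the slide was also fitted as a block that pairs the arrays. With the slide as a block, 3 genes fell in shSix4 cells (Atf3, Trib3 and Sesn2), where 2.6% of all genes were called lower and 5.7% higher. In shLuc cells 8 fell with the block (Atf5, Ddit3, Nupr1, Trib3, Sesn2, Sdf2l1, Edem1 and Sel1l), where 15.7% of all genes were called lower and 9.89% higher. The 8 of 35 in shLuc cells stand near that share, and none of the 35 rose in either line. These calls therefore rest on the slide block. Each is given with its standard error in the fit without the block and with the number of 12 blocked fits, each without 1 array, in which it held. Fits without an array of the other line kept every array of the comparison, so they test a call less. In shLuc cells 3 to 6 genes passed when a shLuc array was left out and 5 to 8 when a shSix4 array was. In shSix4 cells 0 to 4 passed when a shSix4 array was left out and 2 to 3 when a shLuc array was.

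By medians, the log2 change with MyoD in shSix4 cells was -0.42 over the ATF4 arm, -0.16 over the chaperone arm and -0.06 over all genes. In shLuc cells it was -0.22, -0.20 and -0.14. Slide by slide, the change of the ATF4-arm mean was -0.73, -0.18 and -0.36 in shSix4 cells, and 17, 12 and 14 of its 17 genes were lower with MyoD. In shLuc cells it was -0.43, -0.38 and -0.10, and 14, 13 and 10 of 17 were lower. The change of the chaperone-arm mean was -0.15, -0.08 and -0.20 in shSix4 cells and -0.18, -0.32 and -0.10 in shLuc cells. Of its 18 genes, 12, 11 and 15 were lower in shSix4 cells and 13, 14 and 13 in shLuc cells. The means of both arms were thus lower with MyoD on all 3 slides in both lines. Over the slides together, 58% of all genes had negative changes in shSix4 cells and 64.9% in shLuc cells. The lowest of the counts stand near these shares, and shares of all genes by slide are not given here. The ATF4-arm median in shSix4 cells turned to 0.14 in the fit without a block when the slide 1 array of shSix4 empty-vector cells was left out, and was -0.14 in the blocked fit without it. Because whole cultures were measured, fewer cells of a kind and less RNA per cell cannot be told apart. The 6 fibroblast markers were lower with MyoD as well, with median log2 changes of -0.26 in shSix4 cells and -0.39 in shLuc cells. Their part in these changes was not tested.

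**Figure D3:**
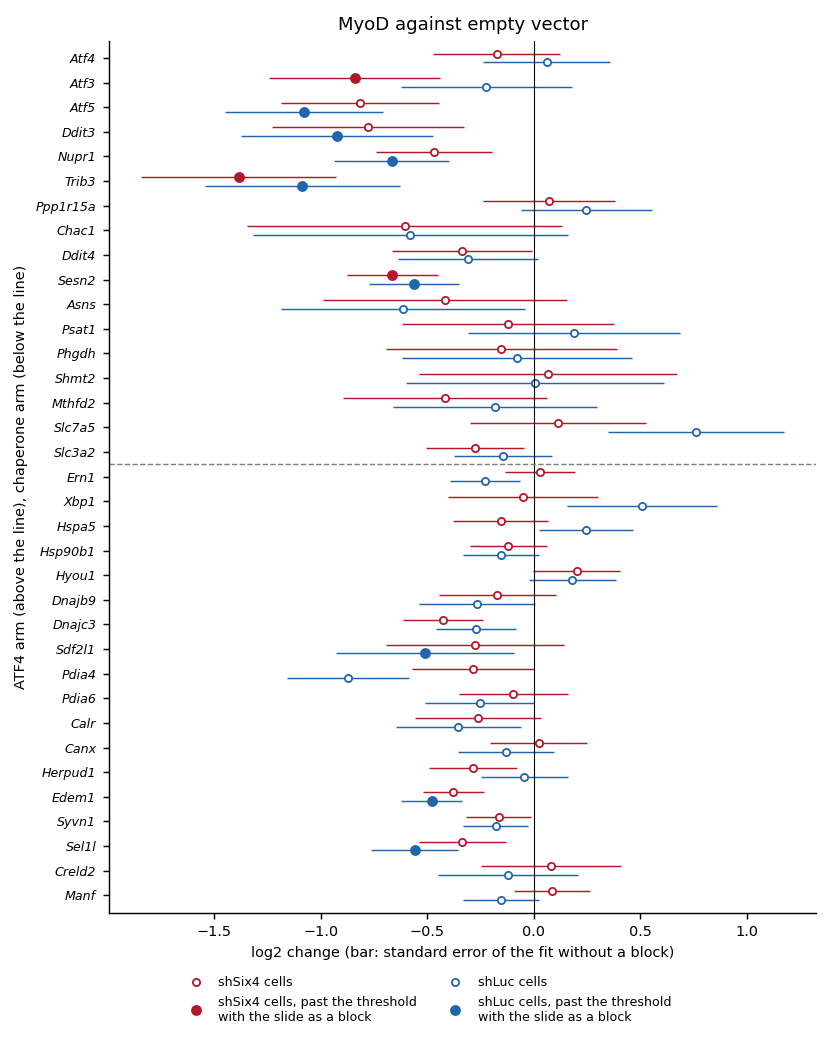
Log2 change with MyoD against empty vector for the 35 genes in shSix4 cells (red) and shLuc cells (blue), with the standard error of the fit without a block. Filled points passed the threshold with the slide as a block, and all of them lie below 0.

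Among the transcription factors of the ATF4 arm, Atf4 read 2.31, 1.59 and 1.83 in shSix4 MyoD cells, 2.71, 1.60 and 1.93 in shSix4 empty-vector cells, 1.90, 1.86 and 1.94 in shLuc MyoD cells, and 2.19, 1.5 and 1.83 in shLuc empty-vector cells. The groups overlapped, and its log2 change with MyoD was -0.17 ± 0.30 in shSix4 cells and 0.06 ± 0.30 in shLuc cells (SE, limma adjusted p 0.995 and 0.942). Atf5 encodes a factor related to ATF4 and is, like it, held under translational control. It read 6.25, 5.43 and 5.13 in shSix4 MyoD cells, against 7.17, 6.08 and 6.0 in shSix4 empty-vector cells. It read 5.38, 5.31 and 5.11 in shLuc MyoD cells, against 6.56, 6.64 and 5.84 in shLuc empty-vector cells. In shLuc cells the groups did not overlap and Atf5 fell by 1.08 ± 0.37 on the log2 scale (SE without the block, limma adjusted p 0.130, and 0.00951 with the block, from 0.00369 to 1.00 over 36 alternatives), a call that held in 12 of 12 fits. In shSix4 cells the groups overlapped and the change was -0.81 (adjusted p 0.519 in limma and 0.0612 with the block).

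Nupr1, a small stress-induced transcription regulator, read 3.96, 3.76 and 3.31 in shSix4 MyoD cells, against 4.50, 3.89 and 4.04 in shSix4 empty-vector cells. It read 3.76, 3.24 and 3.14 in shLuc MyoD cells, against 4.47, 3.88 and 3.79 in shLuc empty-vector cells. MyoD cells were lower on every slide in both lines, and only in shLuc cells were the 2 groups apart. Nupr1 fell by 0.67 ± 0.27 in shLuc cells (limma adjusted p 0.203, and 0.00642 with the block, from 0.00452 to 1.00 over 36 alternatives) in 12 of 12 fits, and its change in shSix4 cells was -0.47 (0.714, and 0.0583 with the block). Ddit3, which encodes CHOP, a factor that promotes cell death under long stress, read 1.19, 0.87 and 0.20 in shSix4 MyoD cells, against 2.60, 1.01 and 0.98 in shSix4 empty-vector cells. It read 0.57, 0.48 and 0.16 in shLuc MyoD cells, against 1.92, 1.36 and 0.72 in shLuc empty-vector cells. The shLuc groups did not overlap. Ddit3 fell there by 0.92 ± 0.45 (limma adjusted p 0.298, and 0.0274 with the block, from 0.00782 to 1.00 over 36 alternatives) in 7 of 12 fits. Its change in shSix4 cells was -0.78 (0.716, and 0.0991 with the block).

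Atf3, an immediate stress factor, was the only transcription factor of the arm past the blocked threshold in shSix4 cells. It read -2.65, -3.24 and -3.45 in shSix4 MyoD cells, against -1.34, -2.66 and -2.81 in shSix4 empty-vector cells. It read -2.62, -3.16 and -3.55 in shLuc MyoD cells, against -2.48, -3.04 and -3.15 in shLuc empty-vector cells. The slide 1 array of shSix4 empty-vector cells was the highest of the 12, both pairs of groups overlapped, and MyoD cells were lower on each slide. Atf3 fell by 0.84 ± 0.40 in shSix4 cells (limma adjusted p 0.559, and 0.0166 with the block, from 0.0162 to 1.00 over 36 alternatives) in 10 of 12 fits, and its change in shLuc cells was -0.22 (0.831, and 0.366 with the block). Whether the lines differed was tested directly, and the difference of the MyoD responses was -0.62 ± 0.57 (adjusted p 1.00, and 0.742 with the block).

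Trib3, a pseudokinase that ATF4 induces and that restrains ATF4 and AKT, fell in both lines. It read 1.76, 0.45 and 0.81 in shSix4 MyoD cells, against 3.55, 1.57 and 2.06 in shSix4 empty-vector cells. It read 0.82, 0.53 and 0.76 in shLuc MyoD cells, against 1.92, 1.81 and 1.64 in shLuc empty-vector cells. The shLuc groups stood apart, while in shSix4 cells the slide 1 array with MyoD lay above the slide 2 array without it. Trib3 fell by 1.39 ± 0.46 in shSix4 cells (limma adjusted p 0.220, and 0.0283 with the block, from 0.0109 to 1.00 over 36 alternatives) and by 1.09 ± 0.46 in shLuc cells (0.222, and 0.0342 with the block, from 0.0102 to 1.00). The calls held in 7 and 6 of 12 fits, and Trib3 passed in both lines without a block when slide 1 was left out, the only gene of the 35 to do so (log2 -1.18, adjusted p 0.0355, in shSix4 cells and -1.08, adjusted p 0.0306, in shLuc cells). The other Trib3 probe gave -1.29 in shSix4 cells and -0.93 in shLuc cells.

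Sesn2 fell in both lines as well. It read 2.37, 3.12 and 2.75 in shSix4 MyoD cells, against 3.57, 3.44 and 3.22 in shSix4 empty-vector cells. It read 2.76, 2.94 and 2.96 in shLuc MyoD cells, against 3.51, 3.60 and 3.23 in shLuc empty-vector cells. The groups did not overlap in either line. Its log2 change was -0.66 ± 0.21 in shSix4 cells (limma adjusted p 0.193, and 0.0493 with the block, from 0.0393 to 1.00 over 36 alternatives) and -0.56 ± 0.21 in shLuc cells (0.168, and 0.0426 with the block, from 0.0208 to 1.00), and the calls held in 1 and 3 of 12 fits. Chac1, which encodes an enzyme that breaks down glutathione, read 3.19, 1.51 and 1.81 in shSix4 MyoD cells, against 4.58, 1.66 and 2.09 in shSix4 empty-vector cells. It read 2.42, 1.41 and 1.62 in shLuc MyoD cells, against 3.37, 2.08 and 1.75 in shLuc empty-vector cells. Slide 1 was far above the others in all 4 groups, the groups overlapped, and the changes of -0.61 ± 0.74 and -0.58 ± 0.74 did not pass (adjusted p 0.966 and 0.746 in limma, 0.289 and 0.212 with the block). Ppp1r15a, the phosphatase subunit GADD34 that reverses eIF2α phosphorylation, had log2 changes of 0.07 in shSix4 cells and 0.25 in shLuc cells, and Ddit4 of -0.34 and -0.31, with no call.

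**Figure D4:**
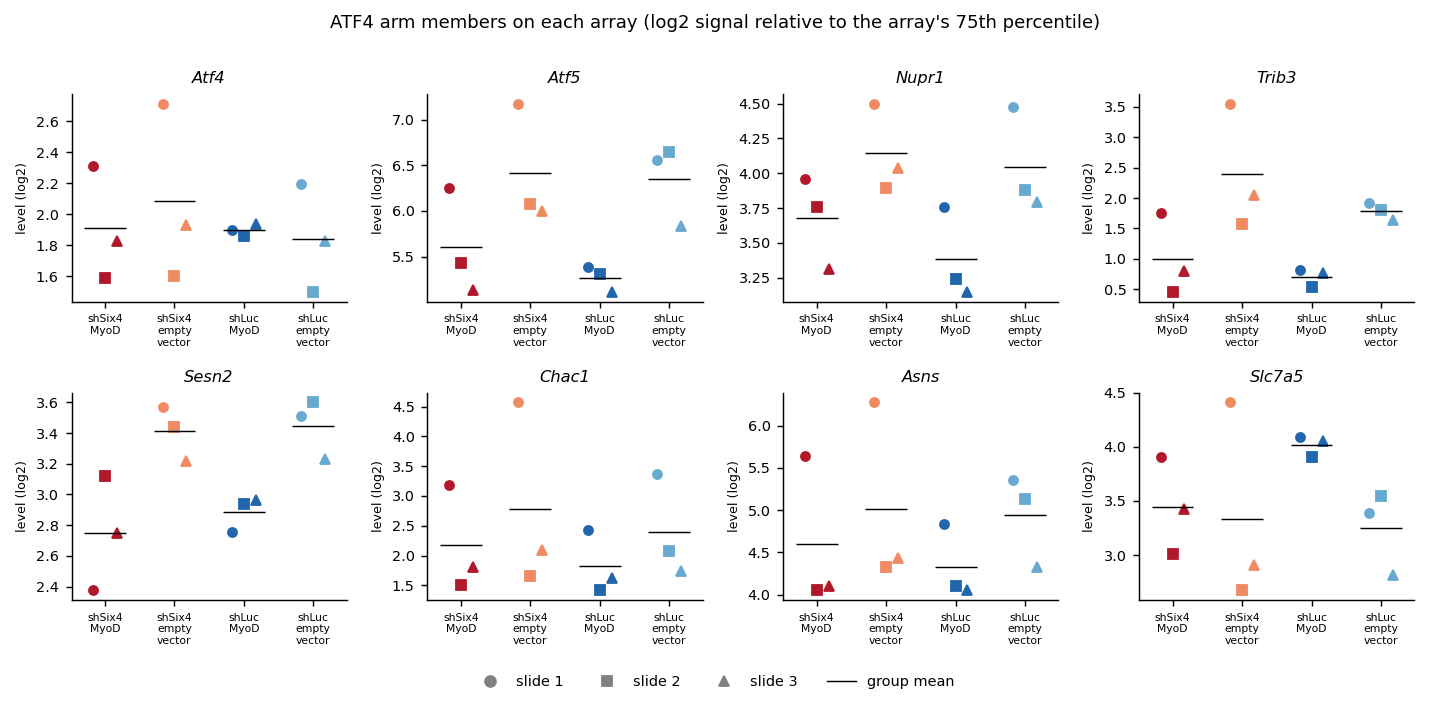
Level of 8 ATF4-arm genes (log2 relative to the array's 75th percentile, 1 panel per gene with its own scale) in the 4 groups, as 1 point per slide with a bar at the group mean. Slide 1 is the highest point of each group for Asns and Chac1, and the MyoD points of Trib3 and Sesn2 lie below the empty-vector points of the same slide.

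None of the 5 amino acid and one-carbon enzymes (Asns, Psat1, Phgdh, Shmt2 and Mthfd2) passed with MyoD, with or without the block, and at an unadjusted p under 0.05 limma counted 0 of 5 in either line. Their log2 changes ran from -0.42 to 0.07 in shSix4 cells and from -0.61 to 0.19 in shLuc cells. Psat1, a step of serine synthesis, read 5.03, 3.52 and 3.81 in shSix4 MyoD cells, against 5.29, 3.52 and 3.92 in shSix4 empty-vector cells, and 4.81, 4.12 and 4.21 in shLuc MyoD cells, against 4.65, 4.21 and 3.70 in shLuc empty-vector cells. The groups overlapped in both lines. Slc7a5 and Slc3a2 encode the 2 subunits of the leucine transporter LAT1. Slc7a5 read 3.90, 3.0 and 3.42 in shSix4 MyoD cells, against 4.41, 2.67 and 2.91 in shSix4 empty-vector cells. It read 4.09, 3.90 and 4.05 in shLuc MyoD cells, against 3.39, 3.55 and 2.82 in shLuc empty-vector cells. It was the only one of the 35 genes whose MyoD arrays all lay above the empty-vector arrays in shLuc cells (10.2% of all genes did), with a change of 0.76 ± 0.41 that did not pass (limma adjusted p 0.361, and 0.113 with the block). In shSix4 cells the groups overlapped, with a change of 0.11 (0.998), and the difference of the responses was -0.65 ± 0.59 (1.00).

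In the chaperone arm, neither the sensor nor its target passed with MyoD. Ern1, which encodes IRE1α, read -2.52, -2.80 and -2.77 in shSix4 MyoD cells, against -2.63, -2.90 and -2.66 in shSix4 empty-vector cells, and -2.60, -2.87 and -2.72 in shLuc MyoD cells, against -2.50, -2.38 and -2.63 in shLuc empty-vector cells. The groups overlapped in both lines. Xbp1, the transcription factor gene that IRE1 splices, read 0.46, 0.28 and 1.14 in shSix4 MyoD cells, against 0.29, 0.72 and 1.03 in shSix4 empty-vector cells, and 0.50, 0.71 and 0.66 in shLuc MyoD cells, against 0.32, -0.68 and 0.71 in shLuc empty-vector cells. All groups overlapped, and its change of 0.51 ± 0.35 in shLuc cells (adjusted p 0.490 in limma, 0.188 with the block) came mainly from slide 2, where it was 1.39. The probe does not separate the spliced from the unspliced form.

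Among the luminal chaperones, Hspa5, which encodes BiP, the ER member of the Hsp70 family, read 5.14, 5.27 and 5.60 in shSix4 MyoD cells, against 5.28, 5.41 and 5.79 in shSix4 empty-vector cells. It read 5.06, 5.50 and 5.42 in shLuc MyoD cells, against 4.80, 5.10 and 5.35 in shLuc empty-vector cells. Its change was -0.16 ± 0.22 in shSix4 cells and 0.24 ± 0.22 in shLuc cells, negative on 3 of 3 slides in shSix4 cells and positive on 3 of 3 in shLuc cells. Neither change passed, and the difference between the lines was -0.40 ± 0.31 (limma adjusted p 1.00, and 0.779 with the block). Dnajc3, the J protein p58IPK, read 1.03, 1.41 and 1.28 in shSix4 MyoD cells, against 1.71, 1.70 and 1.59 in shSix4 empty-vector cells. It read 1.1, 1.63 and 1.11 in shLuc MyoD cells, against 1.69, 1.49 and 1.48 in shLuc empty-vector cells. The shSix4 groups did not overlap, but the change of -0.42 ± 0.19 did not pass (0.486, and 0.131 with the block). In shSix4 cells 4 of the 35 genes had MyoD arrays all below the empty-vector arrays (Sesn2, Dnajc3, Edem1 and Sel1l), where 7.35% of all genes did, and 0 had them all above (7.11%).

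Sdf2l1, a cofactor of the ER J proteins, read 1.35, 0.29 and 0.33 in shSix4 MyoD cells, against 1.64, 0.49 and 0.67 in shSix4 empty-vector cells. It read 1.02, 0.31 and 0.21 in shLuc MyoD cells, against 1.59, 1.05 and 0.43 in shLuc empty-vector cells. Slide 1 was highest in every group, so the groups overlapped, while MyoD cells were lower on each slide. Sdf2l1 fell in shLuc cells by 0.51 ± 0.42 (limma adjusted p 0.575, and 0.0432 with the block, from 0.0209 to 1.00 over 36 alternatives) in 2 of 12 fits, and its change in shSix4 cells was -0.28 (0.992, and 0.33 with the block). Among the other Hsp70, Hsp90 and J protein genes, Hsp90b1 (GRP94) had log2 changes of -0.12 in shSix4 cells and -0.15 in shLuc cells, Hyou1 (GRP170) of 0.20 and 0.18, and Dnajb9 (ERdj4) of -0.17 and -0.27. None of these passed. The other Hsp90b1 probe gave -0.47 in shSix4 cells and -0.40 in shLuc cells.

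Pdia4, a disulfide isomerase, read 1.93, 2.28 and 2.08 in shSix4 MyoD cells, against 2.38, 2.28 and 2.48 in shSix4 empty-vector cells. It read 1.82, 1.21 and 1.89 in shLuc MyoD cells, against 2.27, 3.18 and 2.09 in shLuc empty-vector cells. The shLuc groups did not overlap, and the change of -0.87 ± 0.29 there (limma adjusted p 0.113, and 0.0508 with the block) was -1.97 on slide 2, against -0.45 and -0.20 on the other slides. Calr encodes the lectin chaperone calreticulin. It read 4.68, 4.89 and 5.35 in shSix4 MyoD cells, against 4.72, 5.36 and 5.63 in shSix4 empty-vector cells, and 4.26, 4.61 and 4.93 in shLuc MyoD cells, against 4.57, 5.21 and 5.08 in shLuc empty-vector cells. Calr was lower with MyoD on every slide in both lines, but the groups overlapped and neither change passed (-0.26 ± 0.30 and -0.35 ± 0.30). Its membrane-bound relative Canx had log2 changes of 0.02 in shSix4 cells and -0.13 in shLuc cells, and Pdia6 of -0.10 and -0.25, with the 3 probes of Pdia6 running from -0.25 to -0.03 and from -0.25 to 0.26.

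The genes of ER-associated degradation return misfolded proteins to the cytosol. With the block, 0 of 4 (Herpud1, Edem1, Syvn1 and Sel1l) passed with MyoD in shSix4 cells, where 2.6% of all genes were called lower. In shLuc cells 2 of 4 passed, both lower, where 15.7% of all genes were called lower. The log2 changes of the 4 ran from -0.38 to -0.16 in shSix4 cells and from -0.56 to -0.04 in shLuc cells, where 58% and 64.9% of all genes were negative. Edem1, which passes misfolded glycoproteins on to degradation, read 0.47, 0.50 and 0.69 in shSix4 MyoD cells, 0.95, 0.91 and 0.93 in shSix4 empty-vector cells, 0.98, 1.14 and 1.11 in shLuc MyoD cells, and 1.57, 1.51 and 1.60 in shLuc empty-vector cells. MyoD groups lay below empty-vector groups without overlap in both lines. Edem1 fell in shLuc cells by 0.48 ± 0.14 (limma adjusted p 0.0816, and 0.0118 with the block, the lowest of 36 alternatives, which reached 1.00) in 9 of 12 fits, and its change in shSix4 cells was -0.38 (0.339, and 0.0635 with the block). The other 2 probes of Edem1 were lower with MyoD too, by log2 changes of -0.44 and -0.30 in shSix4 cells and -0.32 and -0.51 in shLuc cells. Sel1l, the adaptor of the ubiquitin ligase HRD1, read -0.07, 0.44 and 0.15 in shSix4 MyoD cells, against 0.46, 0.53 and 0.54 in shSix4 empty-vector cells, and 0.27, 0.40 and 0.26 in shLuc MyoD cells, against 0.75, 1.26 and 0.59 in shLuc empty-vector cells. Neither pair of groups overlapped. Sel1l fell in shLuc cells by 0.56 ± 0.20 (limma adjusted p 0.154, and 0.0221 with the block, from 0.0205 to 1.00 over 36 alternatives) in 8 of 12 fits, but its other probe gave -0.09 there. Syvn1, which encodes HRD1 itself, had log2 changes of -0.16 in shSix4 cells and -0.18 in shLuc cells, and Herpud1, a scaffold of that ligase, of -0.28 and -0.04. The secreted ER stress proteins Creld2 and Manf had log2 changes of 0.08 and 0.08 in shSix4 cells and -0.12 and -0.15 in shLuc cells. In shLuc cells 8 of the 35 genes had MyoD arrays all below the empty-vector arrays, where 15.8% of all genes did.

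**Figure D5:**
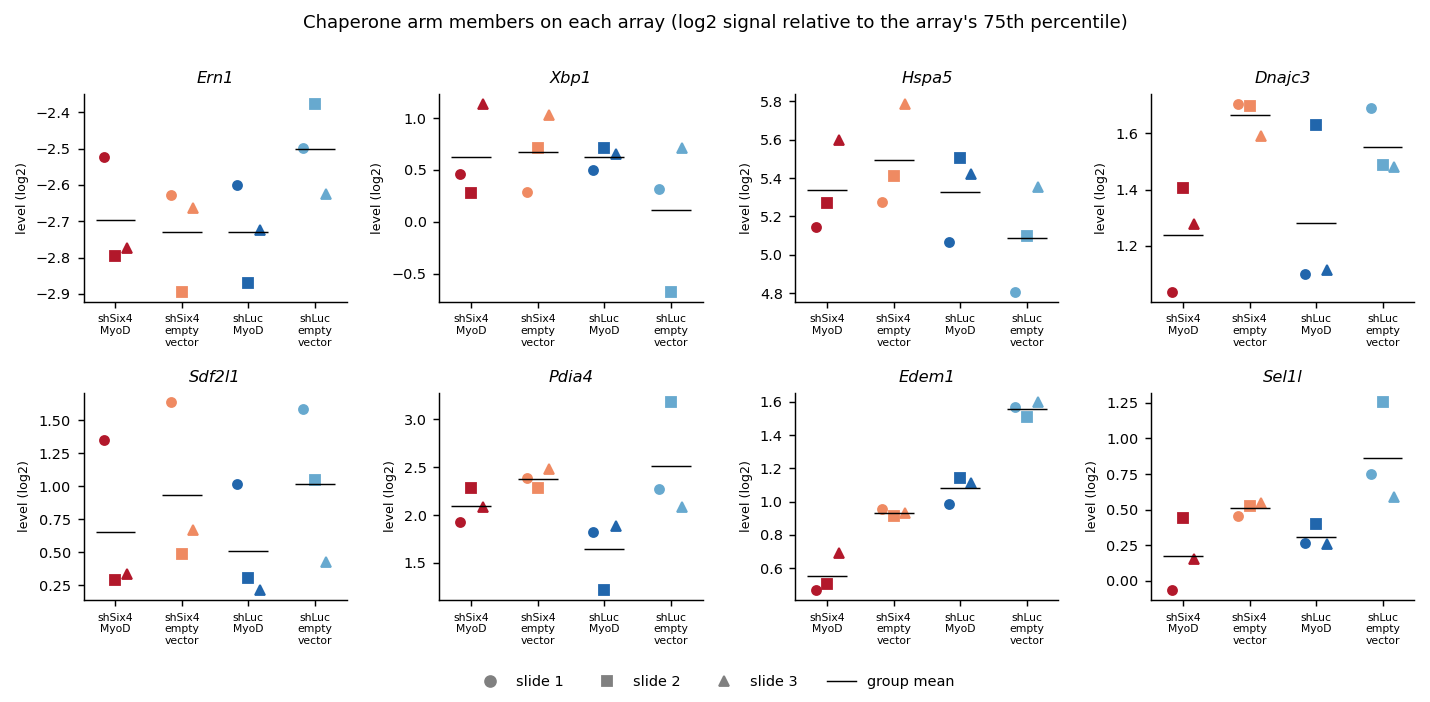
Level of 8 chaperone-arm genes (log2 relative to the array's 75th percentile, 1 panel per gene with its own scale) in the 4 groups, as 1 point per slide with a bar at the group mean. The 4 groups of Edem1 form tight steps from 0.47 to 1.60, while the shLuc empty-vector point of slide 2 stands apart for Xbp1 (-0.68) and Pdia4 (3.18).

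The second comparison asked whether the hairpin lines differ. In limma without a block, 0 of 35 genes passed between shSix4 and shLuc cells with MyoD (0.065% of all genes called higher, 0.163% lower) or with empty vector (0.00813% higher, 0.0488% lower), and in each case 1 gene, Edem1, was lower at an unadjusted p under 0.05 (4.28% of all genes were in MyoD cells and 3.21% in empty-vector cells). With the slide block Edem1 alone passed in both, where 2.59% of all genes were called lower in MyoD cells and 0.496% in empty-vector cells (1.75% and 0.146% higher). Edem1 was lower in shSix4 cells by log2 -0.53 ± 0.14 with MyoD (limma adjusted p 0.201, and 0.0292 with the block, from 0.0217 to 1.00 over 36 alternatives) in 5 of 12 fits, and by -0.63 ± 0.14 with empty vector (0.325, and 0.0403 with the block, from 0.0354 to 1.00) in 2 of 12. The line groups did not overlap in either case. Its other 2 probes did not show this difference: they gave -0.03 and 0.01 in MyoD cells and 0.09 and -0.20 in empty-vector cells. The line difference of Edem1 therefore belongs to 1 of 3 probes.

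Arm medians between the lines are given beside those of all genes. With MyoD, shSix4 minus shLuc was 0.03 over the ATF4 arm, 0.01 over the chaperone arm and 0.03 over all genes. With empty vector it was 0.13, -0.03 and -0.03, and 15 of the 17 ATF4-arm genes had positive differences, against 45.9% of all genes. That ATF4-arm median turned to -0.31 in the fit without a block, and to -0.11 with it, when the slide 1 array of shSix4 empty-vector cells was left out, and it was -0.06 without a block when the slide 3 array of shLuc empty-vector cells was left out. The empty-vector value differed widely by slide, with ATF4-arm means of 0.68, -0.33 and 0.15. Groups that did not overlap between the lines with MyoD were Pdia4 and Manf, higher in shSix4 cells (5.93% of all genes were), and Slc7a5 and Edem1, lower (6%). With empty vector they were Ern1, Edem1 and Sel1l, all lower (5.01%), and 0 were higher (3.28%).

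The third comparison asked whether shSix4 and shLuc cells differ in their response to MyoD. In limma, 0 of 35 genes passed, with or without the block, as did 0% of all genes in each direction, and 0 of the 35 had an unadjusted p under 0.05 without the block. The response in shSix4 minus that in shLuc cells had a median of -0.10 over the ATF4 arm (negative for 12 of 17), 0.10 over the chaperone arm (negative for 4 of 18) and 0.07 over all genes (38.8% negative). The arm means by slide were -0.31, 0.21 and -0.25 for the ATF4 arm and 0.04, 0.24 and -0.10 for the chaperone arm, so neither kept its sign on all 3 slides. Data were simulated with these groups and each gene's spread within groups, but with no effect shared by a slide. In the simulated comparison of MyoD against empty vector in shLuc cells, limma without a block found 20 of 100 2-fold and 77 of 100 4-fold changes. With the slide block it found 15 and 71, and its false calls numbered 6, against 3 without the block. What the block gains where slides do deviate was therefore not measured.

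Other genes of these pathways were described from lists that share no gene with the 38. Of 12 genes for eIF2α kinases and ER stress sensors, 0 passed in limma without the block in any comparison, and at an unadjusted p under 0.05 they numbered 1 higher and 0 lower with MyoD in shSix4 cells and 3 higher and 2 lower in shLuc cells. With the block the same numbers passed. Of all genes, 6.17% were higher and 3.6% lower at that unadjusted p in shSix4 cells and 8.3% and 11% in shLuc cells. With the block, 5.7% of all genes were higher and 2.6% lower in shSix4 cells and 9.89% and 15.7% in shLuc cells, so the 2 of 12 lower there stand near the background. The genes are named here after their values were seen: Atf6, the cleaved sensor, was higher by 0.77 in shSix4 cells and by 0.93 in shLuc cells, and in shLuc cells Eif2ak1 (the heme-regulated kinase HRI) was higher by 0.64 and Eif2s1 (eIF2α) by 0.57, while Eif2ak2 (PKR) was lower at -0.84 and Eif2ak3 (PERK) at -0.64. No other alternative was run for these genes.

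Of 12 measured genes for amino acid transport and synthesis, 1 rose with MyoD in shSix4 cells and 1 rose and 1 fell in shLuc cells in limma without the block. With the block 1 was higher and 1 lower in shSix4 cells (5.7% and 2.6% of all genes), and 1 was higher and 5 were lower in shLuc cells (9.89% and 15.7%). Their median log2 changes were -0.41 and -0.46, with 10 of 12 negative in each line, against 58% of all genes in shSix4 cells and 64.9% in shLuc cells. Gpt2, the mitochondrial alanine transaminase, rose by 1.20 ± 0.26 in shSix4 cells (adjusted p 0.0293) and by 2.34 ± 0.26 in shLuc cells (1.74e-04). Aldh18a1, the first enzyme of proline synthesis from glutamate, fell by 0.85 ± 0.21 in shLuc cells (0.0347). The 12 cytosolic aminoacyl-tRNA synthetases, several of them ATF4 targets, had median changes of -0.08 in shSix4 cells and 0.06 in shLuc cells and 0 calls with or without the block, with 1 lower at an unadjusted p under 0.05 in shSix4 cells and 0 in shLuc cells. The 12 ER folding and translocation genes had 0 calls without the block in either line, 0 at an unadjusted p under 0.05, and 1 lower with the block in shLuc cells. The 9 measured ER-associated degradation genes had 0 calls without the block, 0 at an unadjusted p under 0.05 in shSix4 cells and 1 lower in shLuc cells, and with the block 0 in shSix4 cells and 1 higher and 3 lower in shLuc cells. The 9 cytosolic heat shock genes, which answer to another stress factor, had 0 calls without the block, 0 at an unadjusted p under 0.05 in shSix4 cells and 1 lower in shLuc cells. With the block they numbered 1 lower in shSix4 cells and 1 higher and 2 lower in shLuc cells.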

How the data were processed

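RNA of the 4 groups (300 ng, Cy3) was read on Agilent arrays with Feature Extraction 11.5.1.1 per the file headers, while the submitters' processing notes name 10.5.1.1. The authors deposited scanner tables whose processed signal is a background-corrected intensity, and a normalized log2 table, in which 5 of the genes were found, used only as an alternative. The intensity was converted to log2 minus each array's 75th percentile over 43379 of 45018 spots (controls left out, outlier-marked spots set missing, spots averaged to 41174 probes). Probes well above background on all 3 arrays of a group were kept (24000). A gene was its brightest kept probe named through RefSeq accessions (24844 probes named, GRCm38.p6), and 12300 genes were fitted in limma 3.58.1 (R 4.3.3, 8 residual degrees of freedom) with Benjamini-Hochberg adjustment over all of them, first without and then with the slide as a block (6 residual degrees of freedom). The scripts' fits were tested on simulated data. Replicate numbers equal slides. Deviations of same-slide arrays from their group means correlated at a median of 0.646 (0.278 to 0.819 over 18 pairs). Those of different slides correlated at a median of -0.545 (-0.733 to 0.498 over 36 pairs). Deviations cancel out within a group, so negative values between slides follow from positive values within slides and are not separate evidence. The pairing by replicate number therefore rests on the same-slide values.

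Genes described with every value are those past the threshold in any comparison with or without the block, the 3 largest changes of each arm in each comparison, and Atf4, Ddit3, Ern1, Xbp1 and Hspa5. Asns was added after its values were seen. Other lists name at most 3 genes past the threshold. Exceptions are the sensors and kinases so marked, and the genes named for the slide pattern after their values were seen. The 38 genes, the other lists and these rules were chosen with earlier results of these data known. The alternatives cover background correction, normalization, filters, probe choice, the authors' table, the block and leaving out arrays. The background-correction alternative used the median spot signal, since the tables used here hold no mean signal.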

Additional observations from a re-analysis of the deposited data

How the results depend on the processing

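There were 38 alternatives, 19 of them chosen after seeing the data. The fit without a block made no call among the 35 genes, so none could be lost, and 143 of 6525 values for single genes over all settings passed the threshold. For MyoD against empty vector in shSix4 cells, the count of genes past the threshold was 0 without a block and 3 with the slide (replicate pairing) as a block. Combined with the block it was 2 with normexp background correction on repaired backgrounds, 3 with quantile normalization and 3 with the mean of a gene's probes. It was 1 without slide 1, with or without the block, and 0 to 4 in blocked fits that each left out 1 array. In shLuc cells the counts were 0 without a block, 8 with the block, 8 with block and repaired normexp, 7 with block and quantile, 6 with block and probe means, 1 with quantile alone, 1 without slide 1, 2 without slide 1 in the blocked fit, and 3 to 8 in blocked fits without 1 array. Between the lines the count was 0 without a block and 1 with the block, 1 with block and repaired normexp and 1 with block and quantile, with MyoD and with empty vector alike. It was 0 in both with block and probe means, and 0 to 1 in blocked fits without 1 array. Leaving out 1 array without a block gave 0 to 0 in each comparison. The cause of these moves was not tested.

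The authors' table, with 5 of the genes, put the ATF4-arm median for MyoD at -0.0893 in shSix4 cells and -0.0295 in shLuc cells. It put the chaperone-arm median at -0.0177 in shSix4 cells, with or without the block. These medians cover only the genes of each arm among the 5, so they are not like the medians of 17 and 18 genes. What the processing changed cannot be read from them. By array, the values of that table correlated with the log2 processed signal at 0.9993 to 0.9998. Planned normexp moved the chaperone-arm median to -0.0202 for MyoD in shLuc cells, 0.18 between the lines with MyoD and 0.33 with empty vector. On 3 arrays it had 3 to 10 spots with local background far above their signal, and the 10th percentile of corrected log2 signal was 7.65 to 9.98 there, against 5.89 to 5.97 on the others. Leaving out 1 array without a block, the ATF4-arm median ran from -0.61 to 0.14 in shSix4 cells (-0.55 to -0.14 with the block). It ran from -0.353 to -0.0509 in shLuc cells (-0.34 to -0.17 with the block) and from -0.44 to 0.28 for the difference of the responses (-0.30 to 0.08 with the block). The upper ends in shSix4 cells and for the difference came without the slide 1 array of shSix4 empty-vector cells. In shLuc cells the upper end of -0.0509 came without the slide 1 array of shLuc empty-vector cells. Between the lines it ran from -0.16 to 0.21 with MyoD (-0.02 to 0.18 with the block) and from -0.31 to 0.41 with empty vector (-0.11 to 0.32 with the block). The chaperone-arm median ran from -0.183 to -0.0839 in shSix4 cells and from -0.30 to -0.105 in shLuc cells. Limits: with 3 arrays a group, most 2-fold changes were missed in the fits of data simulated without a slide effect. Slide is tied to replicate, and calls with the block rest on pairing by slide.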
